A study of Mus musculus with 8 samples.

Results

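The small proline-rich protein genes described here are Sprr1b, Sprr2d, Sprr2f, Sprr2h, Sprr2i and Sprr2j. They were chosen by name. A probe set was taken when its gene symbol in the authors' deposited table of differences was exactly one of these symbols, and each gene had 1 probe set there, so the family holds 6 of 1396 genes named by 1 symbol and 6 of 45032 probe sets tested. The authors' deposited table lists only probe sets that they had selected on these same arrays, so a direction shared by named genes is not independent evidence. The arrays profiled the isolated epidermis of newborn C57Bl/6 mice, with the dermis removed. 4 arrays came from dKO epidermis, whose genotype is given as IR-/-, IGF-1R-/- (neither receptor, insulin's or IGF-1's), and 4 from controls labelled wild type. How the receptor genes were deleted, the promoter of any Cre and the age beyond newborn are not given in the sources used here, nor is it said whether each biological replicate was a single animal, so p-values measure the spread between these samples.

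Sprr proteins are short precursors of the cornified envelope, the cross-linked protein shell that replaces the membrane of the outermost keratinocytes. Transglutaminases join their glutamine and lysine residues to loricrin, involucrin and to each other, and the proline-rich repeats between act as flexible bridges. In mouse and human skin the family is known for strong induction by wounding, irritation and inflammation, and its genes lie side by side in the Epidermal Differentiation Complex.

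Transcripts of all 6 Sprr genes were higher in dKO epidermis. The log2 differences without an offset lay between 2.44 for Sprr2h and 6.86 for Sprr2i, with a median of 4.56, where the median over all 45032 probe sets was -0.068 and that over the 1396 named genes was -0.59. With 32 added to each signal, which weighs down differences between dim values, the median of the 6 was 3.50 and all 6 passed, against 0.864% of all probe sets called higher on that scale. All 6 passed the threshold (limma, Benjamini-Hochberg adjusted p under 0.05), against a background of 0.993% of all probe sets that were called higher and 1.25% called lower. Among the 1396 named genes, drawn from probe sets that the authors had selected on these arrays, 19.7% were called higher by their brightest probe set. In all 6 every dKO array lay above every control, which was so for 3.44% of all probe sets. The calls rested on a variance model that follows intensity. Without that trend 0 of the 6 passed (limma Benjamini-Hochberg adjusted p between 0.0662 and 0.166), although all 6 had an unadjusted p under 0.05 (0.00014 to 0.00329), and that fit called 0.0444% of all probe sets higher.

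Insr, the insulin receptor gene, had signals of 50.7 to 87.6 in dKO and 176.1 to 309.6 in controls, lower on every dKO array than on any control. Igf1r, the IGF-1 receptor gene, had signals of 314.7 to 369.1 in dKO and 456 to 707 in controls by its brightest probe set, a log2 difference of -0.76 (SE 0.14, limma Benjamini-Hochberg adjusted p = 0.0176), and of its other probe sets 1428967_at fell by 0.98, while 1426565_at and 1446303_at differed by -0.65 and 0.88 without passing. For the brightest of the 4 the call was lost when the second dKO array was omitted (limma Benjamini-Hochberg adjusted p = 0.0593) or when the first or the second control was (0.0753 and 0.0517). Where these probe sets lie relative to the deleted parts was not tested. The array medians lay between 40.7 and 51.7 units. One pair of arrays needs naming before the values. The fourth dKO array had the lowest dKO signal for all 6 genes, and the fourth control array had the highest control signal for 4 of them. RNA integrity, taken as the mean log2 excess of the 3 prime over the 5 prime control probe sets of Gapdh and Actb, averaged 0.0163 (SD 0.0399) on the 4 dKO arrays and 0.11 (SD 0.106) on the 4 control arrays, and the groups did not differ beyond their spread (permutation test, exact and two-sided, p = 0.171). It was 0.05 on the fourth dKO array. Its part in the Sprr differences was not tested.

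**Figure D1:**
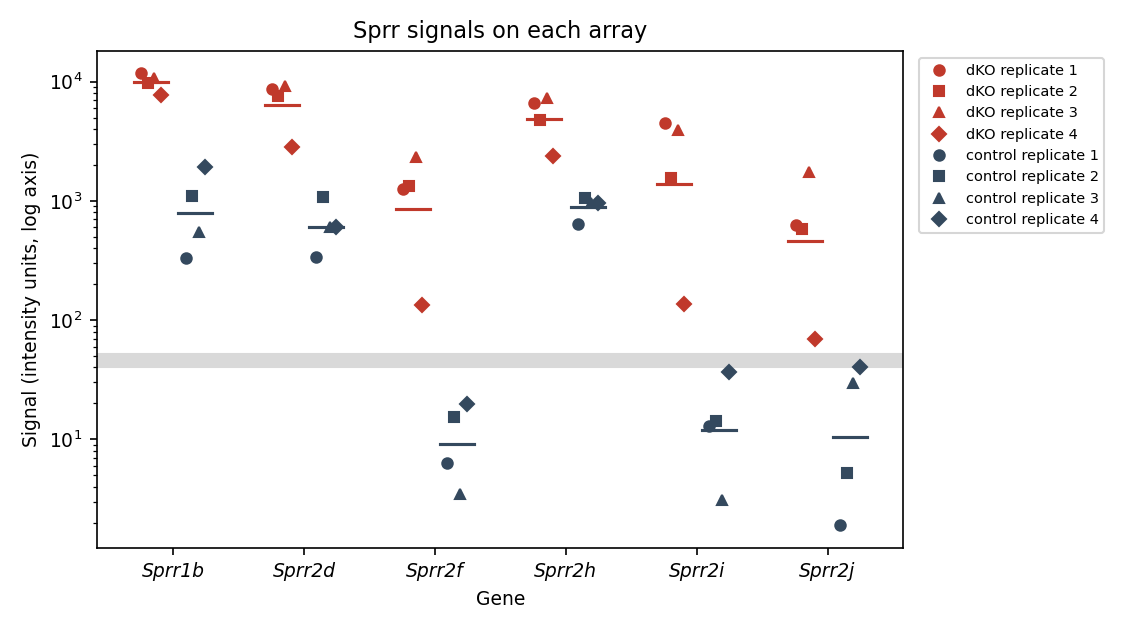
Signal of each Sprr probe set (intensity units, log axis) on every array, dKO in red on the left of each gene and controls in dark grey on the right; the marker shape gives the replicate number, the short line is the geometric mean and the grey band spans the array medians (40.7 to 51.7). Every dKO point lies above every control point of its gene, the fourth dKO array (diamond) is lowest in dKO throughout, and Sprr2f, Sprr2i and Sprr2j lie below the band in controls.

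Sprr1b encodes a cornified envelope precursor of the Sprr1 class, which in human keratinocytes is a marker of squamous differentiation. Its probe set 1422672_at read 11742, 9794.4, 10763.4 and 7802.3 units in dKO replicates 1 to 4, and 331, 1105.6, 549.4 and 1910 units in control replicates 1 to 4. The dKO arrays were close together and the controls were spread, and the lowest dKO signal was 4.08 times the highest control signal. Mean signals were 10026 ± 1682 for dKO and 974 ± 704 for controls (SD, n = 4 each), a log2 difference of 3.65 (SE 0.41, limma Benjamini-Hochberg adjusted p = 0.00136). The offset changed this little, to 3.59.

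The remaining members belong to the Sprr2 class, a set of tandem gene copies with closely similar coding sequences. Probe sequences were not used here, so how far a probe set also reads a neighbouring copy was not tested, and the assignment of signal to single Sprr2 genes is uncertain. This holds most plainly for Sprr2h, whose probe set name carries the suffix that Affymetrix gives to probes shared by several transcripts. Sprr2j is listed in RefSeq as a transcribed pseudogene, Sprr2j-ps.

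Sprr2d and Sprr2h were well measured in both groups. Sprr2d (1420771_at) read 8657, 7568.5, 9157.1 and 2843.8 units in dKO replicates 1 to 4, and 339.6, 1079.2, 598.3 and 601.5 units in control replicates 1 to 4. Here 3 dKO arrays stood together and the fourth was far below them, but still 2.64 times above the highest control. The log2 difference was 3.41 (SE 0.37, limma Benjamini-Hochberg adjusted p = 0.00128). Sprr2d averaged 7057 ± 2886 units in dKO arrays and 655 ± 308 units in control arrays (SD, n = 4 each). Sprr2h (1422240_s_at) read 6605.5, 4800.1, 7307.3 and 2377.1 units in dKO, and 644.6, 1062.6, 959 and 965.8 units in controls. The groups did not overlap, and Sprr2h had the smallest difference of the family, 2.44 on the log2 scale or 5.43-fold (SE 0.29, limma Benjamini-Hochberg adjusted p = 0.00189). Mean signals were 5272 ± 2200.3 for dKO and 908 ± 182 for controls (SD, n = 4 each).

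Sprr2f, Sprr2i and Sprr2j were dim in controls, with mean signals below the lowest array median of 40.7. Sprr2i (1422963_at) read 4510.3, 1550.7, 3961.1 and 136.7 units in dKO replicates 1 to 4, and 12.8, 14.3, 3.1 and 36.7 units in control replicates 1 to 4. The first 3 dKO arrays were bright and the fourth was far below them, but above every control. The log2 difference was 6.86 (SE 0.97, limma Benjamini-Hochberg adjusted p = 0.00444), and 4.97 with 32 added (SE 0.83, limma Benjamini-Hochberg adjusted p = 0.0144). Robust estimation of the variance, which called 0.955% of all probe sets higher, ended this call (limma Benjamini-Hochberg adjusted p = 0.063).

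Sprr2f (1449833_at) read 1251.9, 1345.2, 2327.8 and 132.6 units in dKO, and 6.3, 15.5, 3.5 and 19.9 units in controls. Every dKO array lay above every control, and the fourth was again far below the other dKO arrays. Sprr2f differed by 6.55 on the log2 scale without an offset (SE 0.78, limma Benjamini-Hochberg adjusted p = 0.0018) and by 4.41 with 32 added (SE 0.64, limma Benjamini-Hochberg adjusted p = 0.00807). Of the dim members it was the one that held its call under robust estimation (limma Benjamini-Hochberg adjusted p = 0.0228).

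Sprr2j (1450811_at) read 622.3, 586.3, 1759.9 and 69.4 units in dKO, and 1.9, 5.2, 29.7 and 40.6 units in controls. The fourth dKO array was again the lowest, and the groups did not overlap. Its log2 difference was 5.46 (SE 1.02, limma Benjamini-Hochberg adjusted p = 0.0173), and 3.42 with 32 added (SE 0.67, limma Benjamini-Hochberg adjusted p = 0.0289). The call depended on single arrays. Leaving out the second or the third dKO array ended it (limma Benjamini-Hochberg adjusted p = 0.054 and 0.0611). So did leaving out the first or the second control array (0.055 and 0.0651) and robust estimation (0.116). The other 5 genes stayed past the threshold whichever array was left out.

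**Figure D2:**
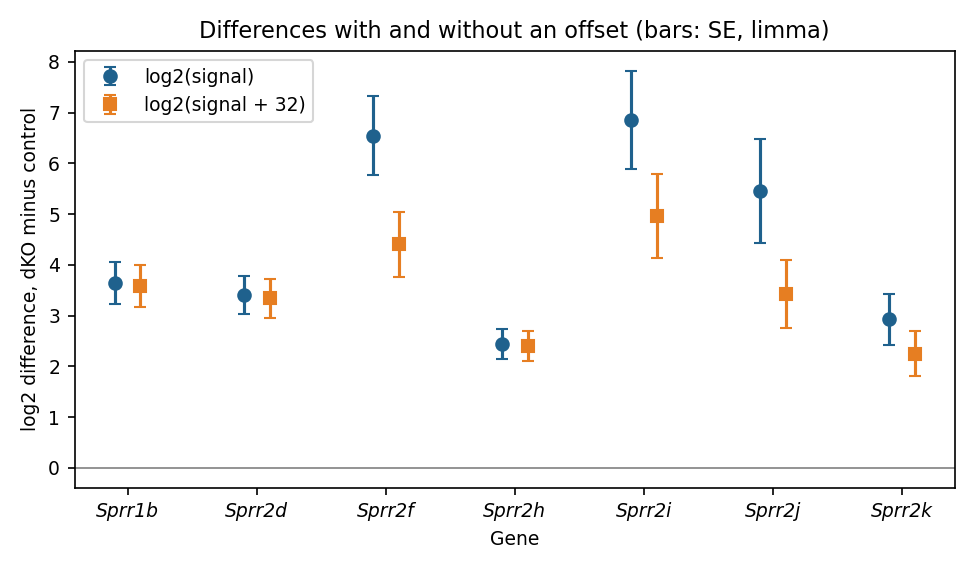
Log2 difference, dKO minus control, of the 6 members and of Sprr2k, without an offset (blue circles) and with 32 added to each signal (orange squares); bars are standard errors from limma. Sprr2f, Sprr2i and Sprr2j, dim in controls, fall to 4.41, 4.97 and 3.42 with the offset, and Sprr1b, Sprr2d and Sprr2h stand at 3.59, 3.34 and 2.40 with it. Sprr2k, also dim in controls, falls from 2.93 to 2.25.

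The order of the differences depended on the offset. Without one, Sprr2i, Sprr2f and Sprr2j led, at 5.46 to 6.86. With 32 added, Sprr1b at 3.59 stood between Sprr2f at 4.41 and Sprr2j at 3.42, and Sprr2d followed at 3.34. With the offset, Sprr1b at 3.59, Sprr2j at 3.42 and Sprr2d at 3.34 lay within their standard errors (0.41, 0.67 and 0.38) of each other, as did Sprr2i at 4.97 and Sprr2f at 4.41 (0.83 and 0.64), and Sprr2h at 2.40 (0.30) was lowest on both scales. Differences between members were not tested. In the authors' deposited table the ratios of knockout over control were 51.0 for Sprr2i, 24.5 for Sprr2f, 13.8 for Sprr1b, 12.2 for Sprr2d, 11.4 for Sprr2j and 4.86 for Sprr2h. The same order came from the signals with 32 added except that Sprr2j stood before Sprr2d.

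The members' values also varied between arrays of 1 group. Relative to the control mean of log2(signal + 32), the family mean was 4.28, 3.88, 4.66 and 1.94 in dKO replicates 1 to 4, and -0.53, 0.21, -0.13 and 0.45 in control replicates 1 to 4. The fourth dKO array was thus between the controls and the other dKO arrays. The size of its drop differed by gene. On the same scale the fourth dKO array minus the mean of the other 3 dKO arrays was -0.46 for Sprr1b, -1.36 for Sprr2h and -1.56 for Sprr2d, and -3.15 for Sprr2j, -3.29 for Sprr2f and -4.18 for Sprr2i.

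In controls the genes differed in another way. Sprr1b varied most, with an SD of 1.06 in log2(signal + 32) in controls and 0.25 in dKO. Its lowest control was replicate 1 and its highest replicate 4, a spread from -1.19 to 1.23 around the control mean. For Sprr2d the high control was replicate 2 at 0.80, and replicate 4 stood at -0.01. The values of the dim members in controls, from 1.9 to 40.6 units, were all at or below the array medians, so their spread there cannot be read as a difference in transcript level.

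Leaving out the fourth dKO array raised every difference. The log2 differences were then 3.77 for Sprr1b, 3.81 for Sprr2d, 2.78 for Sprr2h, 7.44 for Sprr2f, 7.98 for Sprr2i and 6.37 for Sprr2j, all past the threshold (limma Benjamini-Hochberg adjusted p between 7.76e-05 and 0.00362), and that fit called 1.39% of all probe sets higher. Without both arrays numbered 4 the median over the 6 was 5.61.

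**Figure D3:**
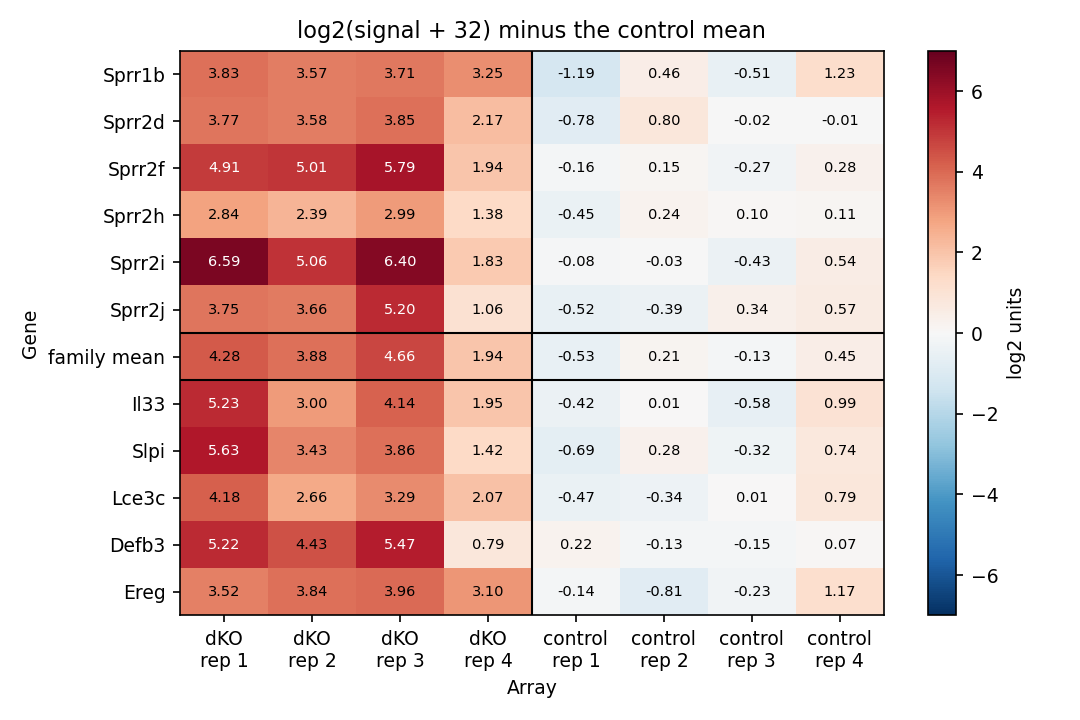
Log2(signal + 32) minus the control mean of the same gene, for each array (dKO on the left, controls on the right), for the 6 members, their mean and the 5 non-member genes with the most similar profile. The family mean is 3.88 to 4.66 on dKO replicates 1 to 3 and 1.94 on replicate 4, and Sprr1b has the smallest drop on replicate 4, at 3.25.

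By RefSeq's mouse gene table (GRCm38.p6) the genes lie in one run on chromosome 3 that holds 17 Sprr entries, from Sprr2a1 to Sprr4, with no other protein-coding gene among them. The run has Sprr2d, Sprr2f, Sprr2h, Sprr2i, Sprr2j-ps, Sprr2k and Sprr1b in that order, with further Sprr2 copies between the first 3. The copies not named in the authors' deposited table, such as Sprr2e, Sprr3 and Sprr1a, were not analysed here. RefSeq promoters were matched for 5 of the 6 members, all but Sprr2j. The 250 bases upstream of the annotated start are shown because 4 of the 5 share one arrangement of elements. Any part of this arrangement in the Sprr differences was not tested. Capitals mark matches to TGANTCA (the AP-1 motif), ATGCAAA (the octamer motif, which reads TTTGCAT on the strand shown) and TATAAA (the TATA box), searched on both strands.

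The sequences are given in the direction of transcription. On the plus strand of GRCm38.p6 they are chr3:92338890-92339139 for Sprr2d, chr3:92364937-92365186 for Sprr2f, chr3:92385435-92385684 for Sprr2h and chr3:92407741-92407990 for Sprr2i, and on the minus strand chr3:92438780-92439029 for Sprr1b.
Sprr2d: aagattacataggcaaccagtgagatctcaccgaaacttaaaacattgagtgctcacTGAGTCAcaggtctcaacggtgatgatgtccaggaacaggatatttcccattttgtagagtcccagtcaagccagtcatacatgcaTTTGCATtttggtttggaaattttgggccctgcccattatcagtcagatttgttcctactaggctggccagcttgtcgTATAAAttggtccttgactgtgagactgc
Sprr2f: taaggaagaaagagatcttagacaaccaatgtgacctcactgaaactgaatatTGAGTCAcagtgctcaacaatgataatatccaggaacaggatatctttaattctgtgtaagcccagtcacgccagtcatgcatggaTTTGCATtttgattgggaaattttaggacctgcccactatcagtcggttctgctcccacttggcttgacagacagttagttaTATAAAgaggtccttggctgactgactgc
Sprr2h: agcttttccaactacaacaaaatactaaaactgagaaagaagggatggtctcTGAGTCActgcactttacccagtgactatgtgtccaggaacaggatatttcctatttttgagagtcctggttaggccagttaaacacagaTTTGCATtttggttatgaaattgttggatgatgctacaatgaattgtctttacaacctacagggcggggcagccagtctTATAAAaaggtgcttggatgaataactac
Sprr2i: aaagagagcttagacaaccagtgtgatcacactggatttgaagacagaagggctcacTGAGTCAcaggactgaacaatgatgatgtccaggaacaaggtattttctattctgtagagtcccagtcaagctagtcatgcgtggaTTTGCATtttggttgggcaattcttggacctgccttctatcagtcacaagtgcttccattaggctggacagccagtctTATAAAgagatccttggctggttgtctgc
Sprr1b: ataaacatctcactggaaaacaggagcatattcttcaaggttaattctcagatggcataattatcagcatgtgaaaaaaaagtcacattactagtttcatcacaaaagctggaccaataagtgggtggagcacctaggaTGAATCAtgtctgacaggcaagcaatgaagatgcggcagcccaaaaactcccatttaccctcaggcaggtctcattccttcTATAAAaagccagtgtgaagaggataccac

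The promoters of the 4 Sprr2 members held these matches in one order, at nearly the same places. The TATA match began 29 bases before the start in all 4 Sprr2 members. The octamer match began at position -107 in Sprr2d and Sprr2i, -108 in Sprr2h and -111 in Sprr2f, each on the opposite strand. The AP-1 match began at -193 in Sprr2d and Sprr2i, -197 in Sprr2f and -198 in Sprr2h. Between Sprr2 members 60.1% to 77.5% of the aligned positions were identical over 6 pairs, and between Sprr1b and these 50.3% to 53.1% over 4 pairs.

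Sprr1b had another layout. Its AP-1 match began at -111 and its TATA match at -30, and the letters of the octamer were not found in the window. Of all 32841 RefSeq promoters, in windows of the same length, 6.75% held the AP-1 motif, 4.13% the octamer and 12.4% the TATA motif, against 9, 7 and 10 of the 14 Sprr promoters. All 3 together stood in 25 promoters, or 0.0761%, and 7 of these 25 were Sprr2 copies (Sprr2b, Sprr2d, Sprr2e, Sprr2f, Sprr2h, Sprr2i and Sprr2k). The other Sprr2 promoters, of Sprr2a1, Sprr2a2 and Sprr2a3, held no AP-1, octamer or TATA match in these windows. Whether their annotated starts correspond to those of the other copies was not tested, so the absence holds for these windows only. The combination of all 3 motifs was picked after the matches were seen, and tandem copies are not independent.

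The other motifs were less regular. The Ets motif AGGAAG, held by 29.5% of all promoters, was found in 7 of the 14 Sprr promoters and, among members, in Sprr2f at -248. GGGNGGG, a Sp1 or Klf type motif held by 44.8%, was found in 3 of 14 and, among members, in Sprr2h at -47. CGGAAG, another Ets motif (13.6%), and AACCGG, a Grhl motif (5.62%), were found in 0 of the 14. Matches of different motifs did not overlap in the members. A match of letters does not show binding.

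**Figure D4:**
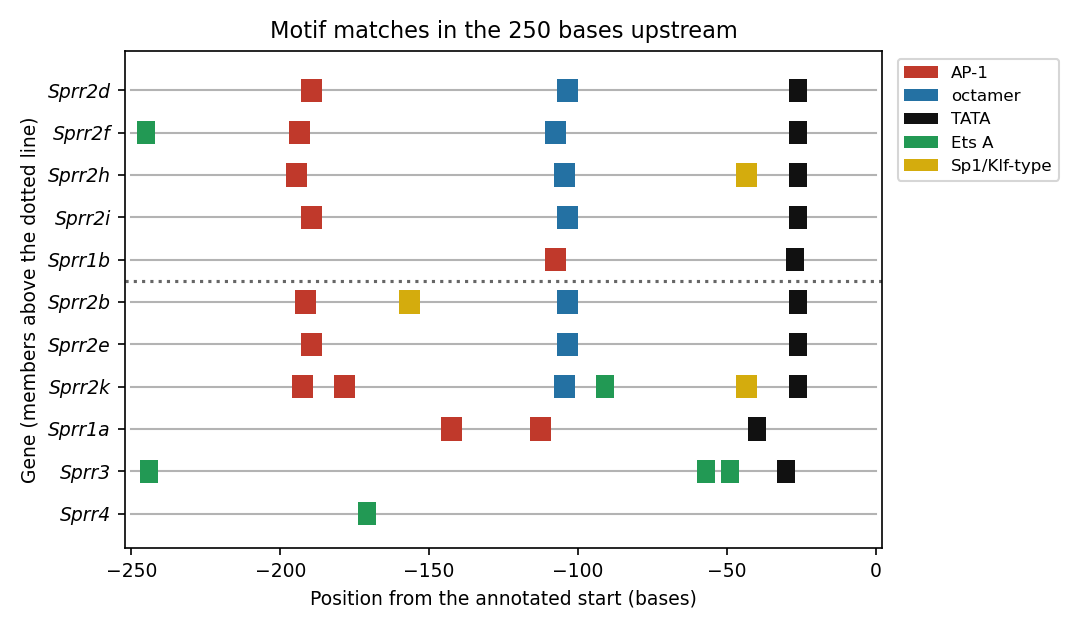
Motif matches in the 250 bases upstream of the annotated start of Sprr genes, members above the dotted line and other Sprr genes below it (x axis, bases from the start; each box spans 1 match on either strand). Sprr2a1, Sprr2a2 and Sprr2a3, which held no AP-1, octamer or TATA match, are not drawn. In Sprr2b, Sprr2d, Sprr2e, Sprr2f, Sprr2h, Sprr2i and Sprr2k the AP-1, octamer and TATA matches stand in the same order; Sprr1b has an AP-1 match at -111 and a TATA match at -30.

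A list of 74 other symbols was mostly of the cornified envelope and the Epidermal Differentiation Complex. It also held Krt77, a keratin of neither, and some genes under more than 1 name. Of this list 14 genes were named. By their brightest probe set, 11 rose, 2 fell and 1 did not pass (limma, Benjamini-Hochberg), with a median log2 difference of 2.56. With 32 added the median was 2.22, and 10 of the 14 passed, 9 of them higher. Over all 1396 named genes, 19.7% rose and 22.4% fell. The seventh named Sprr gene, Sprr2k, read 80.9 to 561.5 units in dKO and 30.2 to 51.0 units in controls. It rose by 2.93 (SE 0.50, limma Benjamini-Hochberg adjusted p = 0.0106), with the fourth dKO array lowest, as in the 6 members. Sprr2k was dim in controls too, with a mean of 39.4 units against the lowest array median of 40.7. Its difference was 2.25 with 32 added (SE 0.44, limma Benjamini-Hochberg adjusted p = 0.0266).

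The late cornified envelope genes Lce3a, Lce3b and Lce3c, whose human counterparts are known from injured and psoriatic skin, rose by 4.54, 3.46 and 3.34. Their signals were 30.5 to 1041.2, 162.7 to 604.6 and 657.4 to 2953.5 units in dKO, and 3.8 to 54.7, 19.9 to 91.2 and 86.9 to 252.5 units in controls, and for Lce3a the groups overlapped. Lce3a was dim in controls, and its difference was 3.05 with 32 added, short of the threshold (limma Benjamini-Hochberg adjusted p = 0.0623). S100a8 and S100a9, subunits of the antimicrobial protein calprotectin, rose by 6.18 and 6.99. Both also overlapped between groups, because the fourth dKO array read 247.9 and 182 units against 391.8 and 206.1 units in the fourth control. Keratinocytes and neutrophils both make these subunits, and no gene of the neutrophil marker list was named here.

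The cross-linking enzymes and the remaining genes of this list had values of either sign. Tgm1, the membrane-bound transglutaminase that cross-links Sprr proteins, rose by 0.80 (SE 0.15), with signals of 2328 to 3829.3 units in dKO and 1496.7 to 2109.2 units in controls. Cnfn, which encodes the envelope component cornifelin, rose by 0.92 and S100a10, an annexin partner, by 0.87. Rptn, which encodes repetin, rose by 2.91 with overlapping groups and missed the threshold with 32 added (2.81, limma Benjamini-Hochberg adjusted p = 0.0621), and Krt77, a suprabasal keratin, rose by 2.21. Tgm3, the soluble epidermal transglutaminase, had a log2 difference of -1.03 that did not pass (SE 0.27, limma Benjamini-Hochberg adjusted p = 0.0718). Tchh (trichohyalin) and S100a3, both made in the hair follicle, had differences of -2.31 and -3.04 and fell.

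The count of this list depended on single arrays and on the processing. It came to 7 without the second or the third dKO array or the second control, and to 6 without the first control or under robust estimation. Left out singly, 6 of the 8 arrays each ended the call of Lce3a, of Rptn and of Tchh, 5 that of Tgm1 and of S100a8, 4 that of S100a9 and 3 that of S100a3. Rptn, Lce3a and Tchh also missed the threshold with 16, 32 or 64 added (limma Benjamini-Hochberg adjusted p between 0.0525 and 0.0749). Under quantile normalization Rptn and Tchh did not pass (0.0511 and 0.0545, limma Benjamini-Hochberg), and with the replicate number as a block neither Rptn nor Tgm1 did (0.0878 and 0.0583). S100a3 did not pass with 64 added (0.0643). Without the intensity trend the count was 0 in limma, where 14 had an unadjusted p under 0.05.

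**Figure D5:**
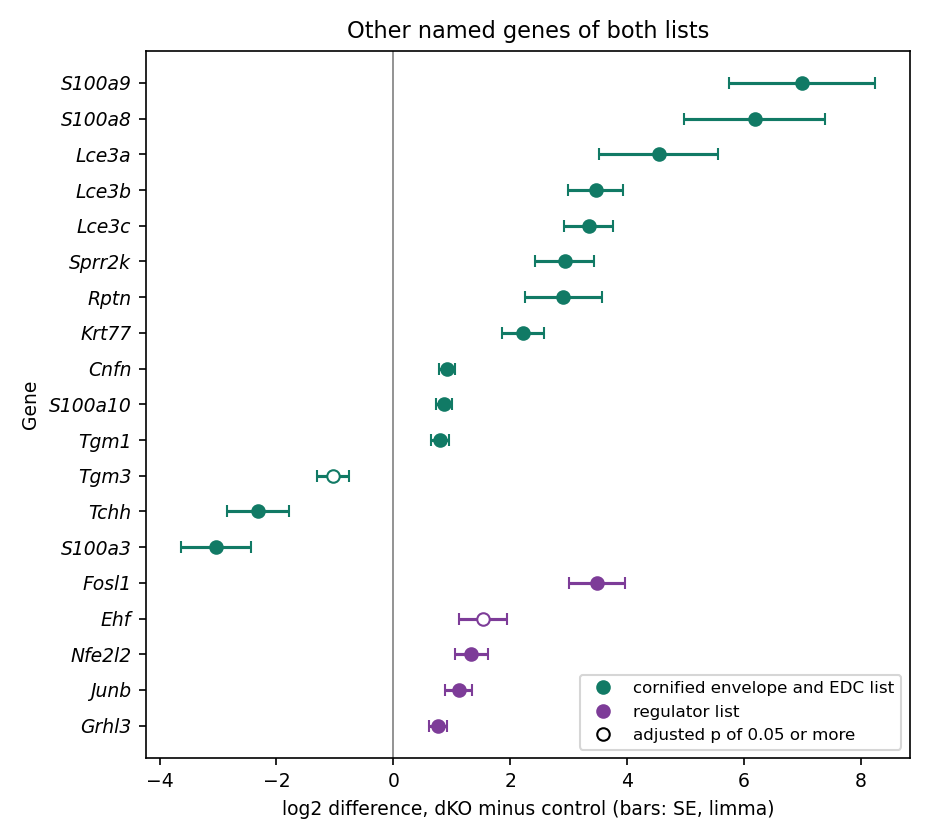
Log2 difference, dKO minus control, of the brightest probe set of each named gene on the cornified envelope and Epidermal Differentiation Complex (EDC) list (green) and the regulator list (purple), with standard errors from limma as bars; open circles did not pass. S100a9, S100a8 and the Lce3 genes lie at 3.34 to 6.99, and Tchh and S100a3 at -2.31 and -3.04.

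Transcription factors of families known to act on Sprr promoters were named in 5 of 30 cases. By the brightest probe set 4 rose, 0 fell and 1 did not pass. Over all 1396 named genes, drawn from probe sets that the authors had selected on these arrays, 19.7% rose and 22.4% fell. Fosl1, which encodes the AP-1 subunit Fra-1, rose by 3.48 (SE 0.48, limma Benjamini-Hochberg adjusted p = 0.00411). Its signals were 227.7, 911.2, 1207.3 and 274.9 units in dKO replicates 1 to 4, and 70, 33.3, 33.9 and 55.8 units in control replicates 1 to 4. On dKO replicate 1 Fosl1 was lower than on dKO replicates 2 and 3, while the Sprr genes were high. On dKO replicate 4 both Fosl1 and the Sprr genes were low for dKO arrays. The lowest dKO signal of Fosl1 was still 3.25 times its highest control signal. Any part of Fosl1 in the Sprr differences was not tested. Junb, another AP-1 subunit, rose by 1.12, Nfe2l2, the oxidative stress factor Nrf2, by 1.33 and Grhl3, a barrier regulator, by 0.76. Ehf, an epithelial Ets factor, differed by 1.53 in its brightest probe set without passing (SE 0.41, limma Benjamini-Hochberg adjusted p = 0.0849), and its other probe sets rose by 2.05 and 2.12. The count came to 1 without the second or the third dKO array or the first control, and to 2 without the second control, and Fosl1 passed in each of these fits. Left out singly, 7 of the 8 arrays each ended the call of Nfe2l2, 5 that of Junb and 3 that of Grhl3.

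Of the 1390 other named genes, the 5 whose profile over the 8 arrays lay nearest to the family mean were Il33, Slpi, Lce3c, Defb3 and Ereg. The root mean square difference was 0.557 for Il33, 0.619 for Slpi, 0.69 for Lce3c, 0.705 for Defb3 and 0.716 for Ereg, in log2(signal + 32), against 0.461 to 1.13 for the members themselves. The comparison is not like for like, since each member is part of the mean it was set against. Il33 encodes an alarmin cytokine, Slpi a protease inhibitor, Defb3 a beta-defensin and Ereg a ligand of the EGF receptor. On the fourth dKO array Defb3 stood at 0.79 and Slpi at 1.42 above the control mean, and Ereg, like Sprr1b, at 3.10.

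Markers of other cells moved with genotype too. All 5 named immune markers (Cd3d, Cd3g, Csf1r, Ptprc and Tyrobp) fell by their brightest probe set, against 22.4% of the 1396 named genes. These named genes were drawn from probe sets that the authors had selected on these arrays. Of the other Csf1r probe sets, 1419873_s_at fell, with a log2 difference of -1.29. The remaining one, 1423593_a_at, differed by -0.79 without passing, and its groups overlapped. The summed signal of the 5 immune markers was 256 to 788 units in dKO, highest on the fourth array, and 1421 to 2040.5 units in controls. Of 3 erythroid markers, Alas2 rose and Slc4a1 did not pass, and their sum was 164 to 456 units in dKO and 43.3 to 70.6 units in controls. Of 4 melanocyte markers, Tyrp1 was named and did not pass, with 629 to 1237 units in dKO and 337 to 809.8 units in controls. No gene of the keratinocyte, internal stratified epithelium, fibroblast, neutrophil or endothelial lists was named, so the tissue label was not checked by them. The part of these shifts in the Sprr differences was not tested, and in whole epidermis more cells of a type and more RNA per cell cannot be told apart.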

How the data were processed

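Newborn epidermis was profiled on Affymetrix Mouse 430 2.0 arrays, 4 dKO and 4 control, from 6 ug of total RNA labelled with biotin, per the labels. Each deposited value is an intensity on a linear scale, 1 for each probe set of an array, and the 2% trimmed mean is 250 on every array. Per the submitters' processing notes MAS5 and Partek were used, without a stated role or version. The authors' deposited table of 2007 selected probe sets gives, per the file headers, the knockout to control ratio, a signed fold made from it, an F statistic used as a score and an unadjusted p-value. How the values behind these ratios were normalized is not stated.

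From the 45101 probe sets, 64 Affymetrix control probe sets were removed, as were 5 others that read 0 on an array. The 45032 others were taken to log2 with no offset and tested in limma 3.58.1 under R 4.3.3 (lmFit, then eBayes with a variance trend on intensity). P values were adjusted by Benjamini-Hochberg over all of them, and "rose" and "fell" mean an adjusted p under 0.05. Offsets of 16, 32 and 64, normalization, variance model, a filter on dim probe sets, a replicate block and left-out arrays were tried as alternatives. The number of arrays limits the precision, and no detection calls were used. Where a gene had several probe sets, the one with the highest mean was counted.

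Motifs were searched in RefSeq promoters (GRCm38.p6) with Python 3.11.15, and promoters were aligned globally with Biopython 1.88. The fitting procedure was tested on simulated data. The members, gene lists, motifs and the rule for named genes (all members and their probe sets, the named genes of both lists, Insr, Igf1r, and the 5 genes nearest in profile) were chosen with earlier results of these data known. The cell type markers are also named.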

Additional observations from a re-analysis of the deposited data

Results flagged for a closer look

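In 60 groups of 4 arrays (30 probe sets of the Sprr genes and both lists, in dKO and in controls), 3 held an array whose gap to its nearest neighbour exceeded Dixon's critical share of the range of log2 signals, and chance gives about 1 in 20. Sprr2d read 2843.8 units on dKO replicate 4 and 7568.5 to 9157.1 units on the other dKO arrays. Krt77 read 2092.8 units on dKO replicate 1 and 6782.5 to 7569.8 units on the other dKO arrays, so its low array was not that of the Sprr genes. Cnfn read 9024.9 units on dKO replicate 1 and 6431.6 to 6710 units on the others.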

How the results depend on the processing

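Over 18 alternatives for each of the 6 Sprr genes, all 108 differences kept their sign, 96 kept their call and 12 lost it, 6 of them without the intensity trend. In that fit 0 Sprr genes, 0 genes of the envelope list and 0 regulators passed in limma, and 60 probe sets changed in all, although 6, 14 and 5 had an unadjusted p under 0.05, as did 5759 of all probe sets. The cause was not tested. The median Sprr difference was 3.50 with 32 and 3.40 with 64 added, where an offset pulls dim values together, and 5.61 without both arrays numbered 4, and it ran from 3.94 to 5.10 with single arrays left out. The Sprr count then ran from 5 to 6, the envelope count from 6 to 13 (6 with robust estimation), the regulator count from 1 to 4 and the count over the whole table from 353 to 1417, against 1012, and it was 1525 without both arrays numbered 4. The groups share replicate numbers. Over all probe sets, arrays with the same number did not deviate together (correlations of -0.0373 to 0.0172). Such a correlation cannot exclude pairing that shows in few genes, so pairing stays undecided. Blocking on the number took the limma Benjamini-Hochberg adjusted p of Tchh from 0.0441 to 0.000617 and of S100a3 from 0.023 to 0.00194. For Rptn and Tgm1 the limma Benjamini-Hochberg adjusted p rose, from 0.0431 to 0.0878 and from 0.0193 to 0.0583. With the replicate number as a block all 6 Sprr genes passed (limma Benjamini-Hochberg adjusted p between 0.00131 and 0.0209), and 698 probe sets changed. Median centring moved the median of all probe sets to 0.0565 and quantile normalization to -0.00539, and the Sprr median was then 4.68 and 4.59. Signals near background limit Sprr2f, Sprr2i, Sprr2j and Sprr2k.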
